A study of Mus musculus with 12 samples.

Results

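The genes described here encode the proteins of the cytosolic ribosome. They are defined by symbol: Rpl or Rps followed by a number and an optional letter or l suffix, plus Rplp0, Rplp1, Rplp2 and Rpsa. Pseudogenes and the Rps6k kinases were left out. The rule gave 83 of the 32285 genes in the count files, 52 of the large and 31 of the small subunit. They were measured via single-cell RNA sequencing in small intestinal organoids of wild-type BALB/c mice after 4 days in 6 conditions and 3 experimental replicates. The control organoids (control) were cultured alone. The Treg organoids shared a tilted well, without cell contact, with 100000 allogeneic CD25high FoxP3-GFP+ T cells, 30 U/ml IL-2 and 2 µl of beads that activate T cells. Further Treg co-cultures received a blocking antibody to IFNγ, one to the receptor of IL-10 (IL-10R), or both, at 10 µg/ml. The cytokine-stimulated organoids were given rIFNγ at 0.25 ng/ml together with rIL-10 at 10 ng/ml and no T cells. All groups were kept in medium with EGF, Noggin and R-spondin-1, sorted as live EpCAM+ cells, tagged with hashing antibodies and pooled, so that each library holds all 6 groups. A condition with beads and IL-2 but without Treg cells was not analysed here, so that effects of Treg cells and of beads and IL-2 cannot be told apart.

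The ribosome consists of a small subunit, which reads the mRNA, and a large subunit, which joins the amino acids. Each subunit is built in the nucleolus from ribosomal RNA and a single copy of most of its proteins, so that the proteins are needed in nearly equal numbers. Their mRNAs are among the most abundant of a growing cell, and many begin with a run of pyrimidines (C or T) at the transcription start, the 5′ terminal oligopyrimidine (TOP) tract, through which mTORC1 and Larp1 set their translation and stability. Myc raises the transcription of ribosomal protein genes and of the factors that assemble ribosomes. In the intestine, crypt stem and progenitor cells divide fast and hold many ribosomes, whereas mature enterocytes turn to absorption. A few members have paralogs, such as Rpl36al of Rpl36a, Rps27l of Rps27, Rpl22l1 of Rpl22 and Rpl7l1, a relative of Rpl7.

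The start regions of the members are shown first, since the pyrimidine tract is the feature that most of these genes share. The table of RefSeq start regions (GRCm38.p6) held 63 of the 83 members. A run of at least 8 bases of C or T on the coding strand in any order lay between 25 bases before and 50 bases after the annotated start in 50 of these 63 members (79.4%), compared with 6078 of all 20267 genes of the table that the count files hold (30.0%). On the opposite strand, such a run was present in 12.7% of the members and 33.0% of all genes. The longest run had a median of 10 bases in members and 6 in all genes. Windows of 10 members to which the results return are given 5′ to 3′ on the coding strand, with the longest run in capitals (in Rps27l, the first of a pair of runs of equal length). They belong to members that were lowered in absorptive-like cells (Rps6, Rpl12, Rpl27a, Rpl14, Rps19, Rps27, Rpl36a), to the paralogs Rps27l and Rpl36al, and to Rpl41, which was raised in progenitor cells.
Rps6 at chr4:86857349-86857378, minus strand: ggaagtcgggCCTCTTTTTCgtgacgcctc
Rpl12 at chr2:32961732-32961761, plus strand: ggaggaggcaacggtgcaaCTTTCTTCggt
Rpl27a at chr7:109519186-109519215, plus strand: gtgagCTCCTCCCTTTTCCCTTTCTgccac
Rpl14 at chr9:120571501-120571530, plus strand: agggcgggCCCTCTCTCTTCTCgctgagcg
Rps19 at chr7:24884612-24884641, plus strand: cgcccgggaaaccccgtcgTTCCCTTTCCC
Rps27 at chr3:90213632-90213661, minus strand: ttccgctttcgCTCCTTTCCggcggtgacg
Rps27l at chr9:66946053-66946082, plus strand: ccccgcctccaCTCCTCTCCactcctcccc
Rpl36a at chrX:134585672-134585701, plus strand: cggctctagCCTCTCTCTTTCCgagctgct
Rpl36al at chr12:69184020-69184049, minus strand: gctctgttcgTCCCTTTCCTgttcggcgcg
Rpl41 at chr10:128549119-128549148, minus strand: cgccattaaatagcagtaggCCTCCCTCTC
The run began 1 base before the annotated start in Rps6 and 4 bases before it in Rpl27a, and 40 bases after it in Rpl12. A run is a description of letters and not a shown TOP tract. Both paralogs carried a run of at least 8 bases, as did Rps27 and Rpl36a.

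After the limits on cells, 11911 cells of 5 libraries remained, of which 1774 were control, 2097 Treg, 2120 Treg with anti-IFNγ, 2091 Treg with anti-IL-10R, 2020 Treg with both antibodies and 1809 cytokine-stimulated. Replicates 1 and 2 were sequenced as 2 libraries each, replicate 3 as 1 library, and a sixth library that the study excluded was left out. The 5 libraries held 128917456 to 223155304 unique molecular identifiers (UMIs), of which 25.6 to 28.1% belonged to the members, and pairs of libraries shared 9 to 24 barcodes. Cells were assigned to the control cluster they resembled most, in a clustering without the members: stem cell-like (ISC-like), cycling Olfm4+, transit amplifying-like (TA-like), Dmbt1+ intermediate, absorptive-like and goblet/Paneth-like, and 455 cells were left unnamed. The name ISC-like does not set these cells apart by stem cell markers alone. The ISC-like cluster had 12 ISC markers raised against other control cells, and the cycling Olfm4+ clusters had 10, 10 and 12. Cycling markers raised there numbered 2 in the ISC-like and 10, 10 and 3 in the cycling Olfm4+ clusters. Dmbt1 was among the leading genes of the Dmbt1+ intermediate cluster and also of a TA-like cluster, so that it does not mark the former alone. With cluster profiles from the other replicates, control cells were returned to their class in 84.2, 81.0 and 88.1% of cases in replicates 1, 2 and 3. The clusters and the genes compared came from all control cells, so that the replicate was not fully held out. Markers of T cells, summed over 12 genes, reached 1.48 to 3.06 CPM (counts scaled to a total of 1000000 UMIs), except in replicates 2 and 3 of Treg with anti-IL-10R (7.35 and 19.1 CPM), and their part in the results was not tested.

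The members took a large part of all UMIs in every class. In control organoids, their share was 31.4, 31.4 and 32.9% in ISC-like cells of replicates 1, 2 and 3, and 25.4, 27.4 and 25.7% in absorptive-like cells, without overlap of the values. Endocrine-like cells, too few for a test, had shares of 16.8, 15.4 and 18.0%. A share is relative: fewer transcripts of the members and more of other genes cannot be told apart.

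Levels of single members are given in CPM, where each captured molecule counts once whatever the length of the transcript. Among the most abundant members in control cells were Rps29 with 6990, 9275 and 6989 CPM in replicates 1, 2 and 3 (7752 ± 1320, SD, n = 3) and Rpl41, the smallest ribosomal protein, with 7038 ± 403 CPM. Rps24 (6125 ± 285 CPM) and Rpl23 (6042 ± 179 CPM) were also among them. Rpl41 had 6755, 7500 and 6860 CPM in replicates 1, 2 and 3, below Rps29 in each, although the ranges of both overlapped. The difference was not tested. At the low end were Rpl29 (847 ± 93.3 CPM), Rps27l (1012 ± 45.6 CPM) and Rpl4 (1095 ± 60 CPM), whereas Rpl7l1, a protein of ribosome assembly rather than of the finished ribosome, reached 98.8 ± 6.07 CPM. The tissue-restricted paralogs were almost absent. Rpl3l, known from muscle, had 27, Rpl39l 2 and Rpl10l 0 of 541449491 UMIs, and a count of 0 allows up to 3. The remaining 80 members passed the filter on low counts in every class and were tested, and their sums per class, group and replicate held 38 to 155350 UMIs (median 9808).

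The members varied little between classes. Across the 6 classes of control organoids, the highest and lowest class means of a member differed by a median of 0.35 on the log2 scale (range 0.23 to 0.73). ISC-like cells had the highest level of 71 of the 80 members, goblet/Paneth-like cells the lowest of 44 and absorptive-like cells the lowest of 33. The widest range belonged to Rpl7l1, from 63.7 CPM in absorptive-like to 105.9 CPM in TA-like cells (1.66-fold). Rps2, a small subunit protein, ranged from 1949 CPM in goblet/Paneth-like to 3003 CPM in ISC-like cells, Rpl36 from 3621 to 5058 CPM and Rpl22l1 from 1591 CPM in goblet/Paneth-like to 2209 CPM in Dmbt1+ intermediate cells (1.39-fold). These values describe clusters of the same cells and were not tested.

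**Figure D1:**
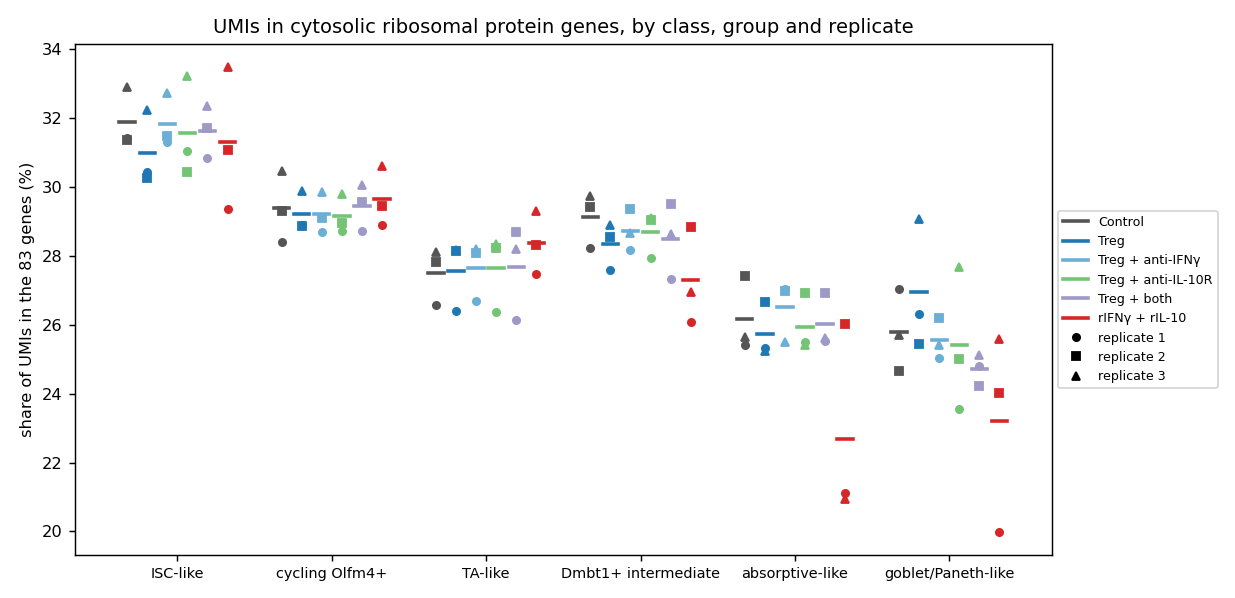
Share of UMIs in the 83 ribosomal protein genes (y axis, %) in each cell class and group, with 1 marker for each of the 3 replicates and a bar at the mean. In absorptive-like cells, cytokine-stimulated replicates 1 and 3 lie near 21%, below all control replicates, while replicate 2 lies at 26.0%.

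To address how the combined cytokines act on the members, cytokine-stimulated and control organoids were compared within each class. The answer differed between classes: most members were lower in absorptive-like cells, and part of them were higher in TA-like and cycling Olfm4+ cells. In absorptive-like cells, 63 of 80 members fell and 0 rose (edgeR quasi-likelihood test, adjusted p under 0.05), at a background of 12.1% of all tested genes lower and 13.7% higher. In TA-like cells, 30 members rose and 0 fell (12% of all genes higher, 11.3% lower). In cycling Olfm4+ cells, 22 rose and 2 fell (11.5% higher, 10.7% lower), and in Dmbt1+ intermediate cells 0 rose and 17 fell (6.39% higher, 5.5% lower). ISC-like cells had 2 members higher and 1 lower (3.12% higher, 3.37% lower), and goblet/Paneth-like cells 0 higher and 1 lower (1.61% higher, 1.44% lower). These calls need the replicate as a block, which sets the groups of the same libraries against each other: without it, 0 members were called in any class by edgeR, and over the 6 classes 0 members were higher and 9 lower at an unadjusted p under 0.05. DESeq2 with the block called 2 members higher and 1 lower in ISC-like, 23 higher and 1 lower in cycling Olfm4+, 57 lower and 0 higher in absorptive-like, 32 higher and 0 lower in TA-like, 8 lower and 0 higher in Dmbt1+ intermediate and 2 lower and 0 higher in goblet/Paneth-like cells. Calls over all genes by DESeq2 and without the block are not given here. The counts of these fits can therefore not be read as particular to the members.

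The sizes were small. The median log2 fold change of the 80 members was -0.24 in absorptive-like, -0.11 in goblet/Paneth-like, -0.095 in Dmbt1+ intermediate, -0.028 in ISC-like, 0.031 in cycling Olfm4+ and 0.083 in TA-like cells, whereas the median of all genes stayed between -0.010 and 0.010. By replicate, the median log2 CPM ratio in goblet/Paneth-like cells was -0.462, -0.032 and -0.007, so that this value came mostly from replicate 1. In ISC-like cells it was -0.112, -0.014 and 0.032 and changed sign. Of the 80 members, 73 had a positive log2 fold change in TA-like and 5 in absorptive-like cells. The number of members with an unadjusted p under 0.05 was 65 lower and 0 higher in absorptive-like cells, 42 higher and 0 lower in TA-like cells, and 38 lower and 1 higher in Dmbt1+ intermediate cells. In either direction, these were 81.2% of members in absorptive-like (36.9% of all genes), 52.5% in TA-like (34.5%) and 48.8% in Dmbt1+ intermediate cells (25.6%). The shares were 38.8% in cycling Olfm4+ (33.6% of all genes), 18.8% in goblet/Paneth-like (14.3%) and 15% in ISC-like cells (19.5%). Abundance alone was a different background: of genes at 500 CPM or more that are not members, 14.9% fell in absorptive-like cells and 43.6% rose, whereas 29.2% rose and 18.4% fell in TA-like and 31.4% rose and 26.7% fell in cycling Olfm4+ cells. The 37.5% of members that rose in TA-like cells stand near the share of other abundant genes that rose, and the 27.5% that rose in cycling Olfm4+ cells lie below it, without a test of the difference. In Dmbt1+ intermediate cells, 14.1% of other abundant genes fell and 17.4% rose, compared with 21.2% of members that fell.

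**Figure D2:**
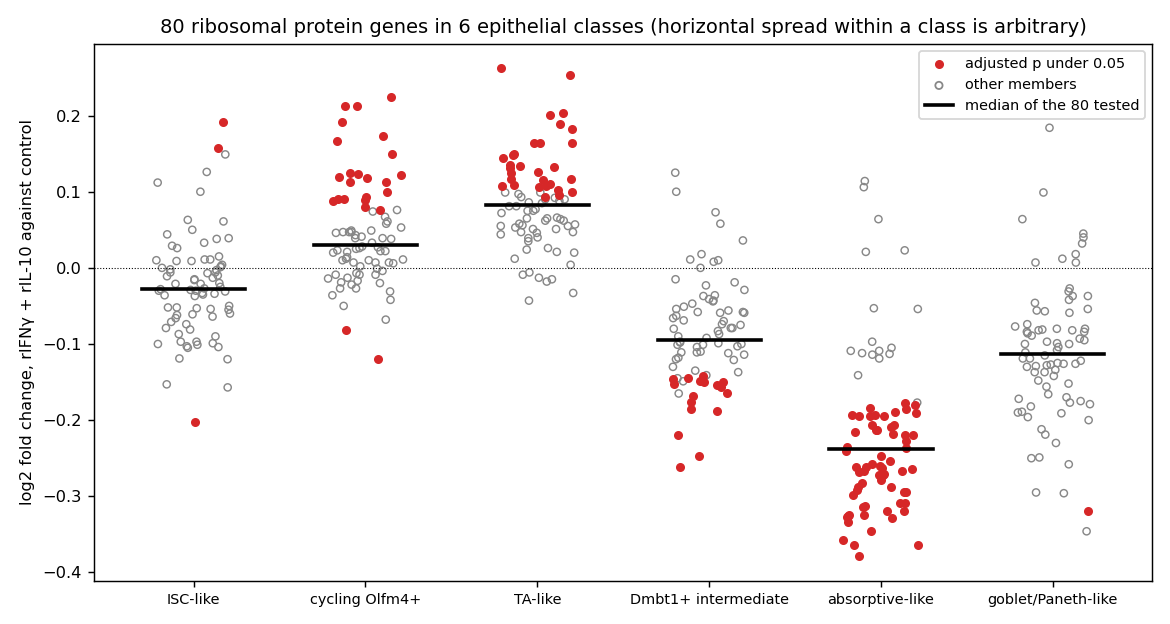
Log2 fold change of the 80 tested ribosomal protein genes (y axis, 1 point a gene) between cytokine-stimulated and control organoids in each cell class, with adjusted p under 0.05 in red and a line at the median. The cloud of absorptive-like cells lies below 0 (median -0.24) and that of TA-like cells mostly above it (median 0.083).

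The share of UMIs in the members moved by replicate as follows. In absorptive-like cells it was 21.1, 26.0 and 21.0% with cytokines, compared with 25.4, 27.4 and 25.7% in control, a difference of -4.30, -1.40 and -4.70 percentage points. The difference was negative in all 3 replicates (mean -3.47 ± 1.80, SD), but it was smaller in replicate 2, whose cytokine value lay within the control range, so that the groups overlapped. In TA-like cells the share was 27.5, 28.3 and 29.3% with cytokines and 26.6, 27.8 and 28.1% in control, and the difference of 0.90, 0.49 and 1.19 percentage points was positive in all 3 replicates while the groups overlapped. The counts of calls depended on replicates 1 and 3. In absorptive-like cells they fell from 63 to 24 without replicate 1 and to 2 without replicate 3, and were 64 without replicate 2. In TA-like cells, 5, 47 and 3 members rose without replicates 1, 2 and 3. In cycling Olfm4+ cells, 10, 22 and 11 members rose and in Dmbt1+ intermediate cells 0, 17 and 4 fell in the same order. Calls over all genes in these smaller fits are not given here, so that the losses cannot be read as particular to the members.

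Both subunits took part. In absorptive-like cells, 37 of 49 large subunit members (median log2 fold change -0.24) and 26 of 31 small subunit members (-0.25) fell. In TA-like cells, 21 of 49 large (0.092) and 9 of 31 small subunit members (0.065) rose, and in cycling Olfm4+ cells 16 and 6. Of the 80 members, 68 had a lower CPM in absorptive-like cells of all 3 cytokine-stimulated replicates, and 2 had a higher one in all 3. In TA-like cells, 40 were higher and 10 lower in all 3, and in cycling Olfm4+ cells 30 were higher and 23 lower. In Dmbt1+ intermediate cells 4 were higher and 50 lower, in ISC-like cells 10 and 23, and in goblet/Paneth-like cells 1 and 35. No such count over all genes was made.

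Among the members that fell in absorptive-like cells, Rpl12 (ENSMUSG00000038900), a protein of the stalk base of the large subunit, had 3532, 2439 and 2259 CPM in control and 2366, 2198 and 1745 CPM with cytokines. It was lower in each replicate, although the groups overlapped, since replicate 1 with cytokines lay above control replicate 3. Its log2 fold change was -0.38 ± 0.072 (SE, adjusted p = 0.000687, edgeR). Rps6 (ENSMUSG00000028495), the small subunit protein phosphorylated downstream of mTORC1, had 1876, 1740 and 1720 CPM in control and 1379, 1570 and 1251 CPM with cytokines, without overlap (log2 fold change -0.36 ± 0.070, adjusted p = 0.000762, edgeR). Rps7, which is also known to bind Mdm2, had 3029, 3328 and 3254 CPM in control and 2302, 3018 and 2373 CPM with cytokines, again without overlap (log2 fold change -0.35 ± 0.069, adjusted p = 0.00107, edgeR). Rps27 fell by 0.36 ± 0.067 and Rpl8 (ENSMUSG00000003970) by 0.36 ± 0.071 on the log2 scale (adjusted p = 0.000513 and 0.000991, edgeR), and both overlapped, since replicate 2 with cytokines reached 4538 CPM of Rps27 and 2781 CPM of Rpl8.

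In contrast, 17 members did not pass the test in absorptive-like cells. Rpl41 (ENSMUSG00000093674) had 5796, 6885 and 5624 CPM in control and 6216, 7102 and 5541 CPM with cytokines there, a log2 fold change of 0.023, and the groups overlapped. Rps20 (ENSMUSG00000028234), a small subunit protein, had a log2 fold change of -0.054 (adjusted p = 0.525, edgeR), Rps2 of -0.053, Rpl31 of 0.021, Rpl27 of -0.105 and Rpsa, also known as the laminin receptor, of -0.109.

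These members were among those that rose in TA-like cells. Rpl41 had 6775, 7553 and 7076 CPM in control and 8440, 8329 and 8121 CPM with cytokines. All cytokine-stimulated replicates lay above all control replicates (log2 fold change 0.26 ± 0.044, adjusted p = 0.000171, edgeR). Rps20 rose from 5040, 5332 and 5804 to 6001, 5922 and 6819 CPM, and Rpl27 from 2373, 2581 and 2752 to 2770, 2827 and 3012 CPM, both without overlap (log2 fold change 0.25 ± 0.039 and 0.20 ± 0.044). Rpsa (0.20 ± 0.040) and Rpl31 (0.19 ± 0.041) rose with overlap of the groups. In the same cells, Rpl12 had 3761, 2607 and 2775 CPM in control and 3322, 2657 and 2596 CPM with cytokines, and Rps6 had 1910, 1714 and 1870 and 1877, 1775 and 1938 CPM, in each case with overlap and without a call.

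**Figure D3:**
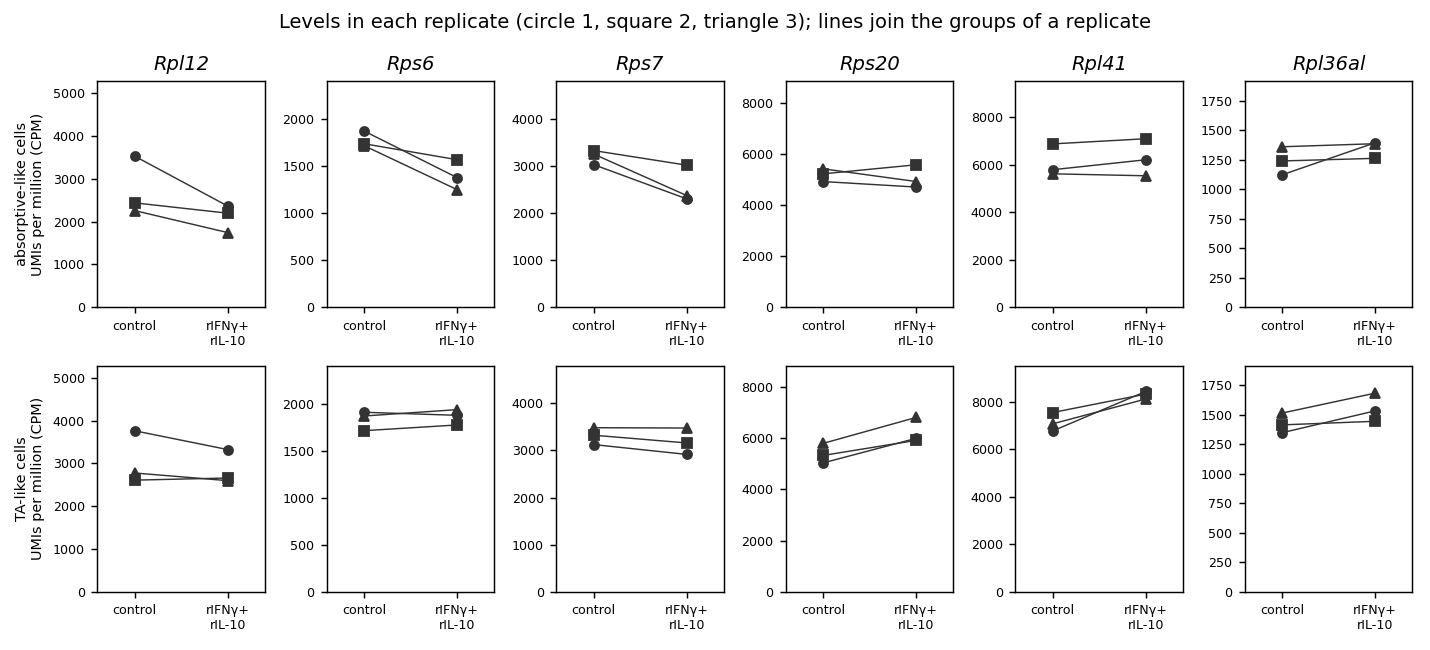
Level of 6 members (y axis, CPM) in control and cytokine-stimulated organoids, 1 line for each of the 3 replicates, in absorptive-like cells (top) and TA-like cells (bottom). Rps6 and Rps7 are lower in every replicate of absorptive-like cells, while Rpl41 and Rps20 are higher in every replicate of TA-like cells.

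Rpl41 and Rps20 were also raised in the other crypt-like classes. In ISC-like cells, where only these 2 members rose, Rpl41 had 7168, 7558 and 7057 CPM in control and 8011, 8667 and 8093 CPM with cytokines, without overlap (log2 fold change 0.19 ± 0.044, adjusted p = 0.00583, edgeR), and Rps20 had a log2 fold change of 0.16 ± 0.047 (adjusted p = 0.0365, edgeR). The call of Rps20 was lost with normalization from genes that are not members (adjusted p = 0.0512, edgeR) and without each replicate in turn (0.077 to 0.221), and that of Rpl41 without replicate 2 (0.0958) or 3 (0.0701). Rpl12 was the single member that fell there (-0.20 ± 0.051, adjusted p = 0.0121, edgeR, 0.343 without replicate 1 and 0.0518 without replicate 2), from 4805, 3103 and 3287 to 3826, 2808 and 2952 CPM with overlap. In cycling Olfm4+ cells, Rpl7l1 (ENSMUSG00000063888) rose from 103, 107 and 106 to 116, 121 and 130 CPM, without overlap (0.23 ± 0.065, adjusted p = 0.015, edgeR). Rpl41 and Rps20 rose by 0.21 each, Rpl27 by 0.19 and Rps2 by 0.17 on the log2 scale, whereas Rpl12 fell by 0.12 and Rps7 fell by 0.082. In Dmbt1+ intermediate cells, Rpl36a fell from 2047, 2094 and 2046 to 1637, 1843 and 1729 CPM, without overlap (-0.25 ± 0.054, adjusted p = 0.00334, edgeR), and Rpl12 fell by 0.26, Rps7 fell by 0.22, and Rps29 and Rpl37a fell by 0.19 each.

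The order of the members' fold changes was partly shared between the classes, which come from the same libraries and cultures (Spearman's rho 0.459 to 0.827 across the 80 genes, which are not independent replicates). Of the 80 fold changes, that of Rpl12 was the lowest in all 6 classes, while Rpl41 ranked 77th to 80th, Rps20 74th to 79th and Rpl36al 73rd to 80th from the lowest in every class. Of the members that rose in TA-like cells, 19 fell in absorptive-like cells and 11 were not called there (Rpl10, Rpl19, Rpl27, Rpl31, Rpl36al, Rpl41, Rplp2, Rps2, Rps20, Rps23 and Rpsa). All 17 members that fell in Dmbt1+ intermediate cells also fell in absorptive-like cells, and 19 members rose in both TA-like and cycling Olfm4+ cells. Only Rpl23a, Rpl29, Rpl38, Rpl7a and Rps27l were called in none of the 6 classes.

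Whether the cytokine effect differed between classes was tested directly, with the class by treatment term of a fit over both classes. The effect was lower in absorptive-like than in TA-like cells for 70 of 80 members and higher for 0 (3.38% of 12040 genes lower, 2.55% higher), with a median difference of -0.31 on the log2 scale. The members with the largest difference were Rpl8 (-0.45 ± 0.082, adjusted p = 0.00128, edgeR), Rpl27a (-0.43), Rpl14 (-0.42), Rps6 (-0.42) and Rps19 (-0.41). The 10 members without a call were Rpl41 (-0.23), Rps2 (-0.22), Rpl10 (-0.21), Rpl23a, Rpl38, Rpl7a, Rpl31 (-0.16), Rpl36al (-0.045), Rpl7l1 (-0.027) and Rps27l (0.10). At an unadjusted p under 0.05, 77 members were lower and 0 higher, without a count over all genes beside it. The sums of both classes come from the same cultures and libraries, and the fit held replicate as a block within each class. The count of 70 was 4 without replicate 1, 72 without replicate 2 and 0 without replicate 3, and 0 without the replicate block. Over all genes, 407 were lower in the main fit and 11 without the block. Without replicates 1, 2 and 3, 59, 524 and 12 of all genes were lower. Against ISC-like cells, for which fewer cells were available, 7 members had a lower effect in absorptive-like cells (2.28% of all genes lower, 2.91% higher): Rpl8, Rpl27a, Rps6, Rpl14, Rps19, Rpl13 and Rpl27.

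**Figure D4:**
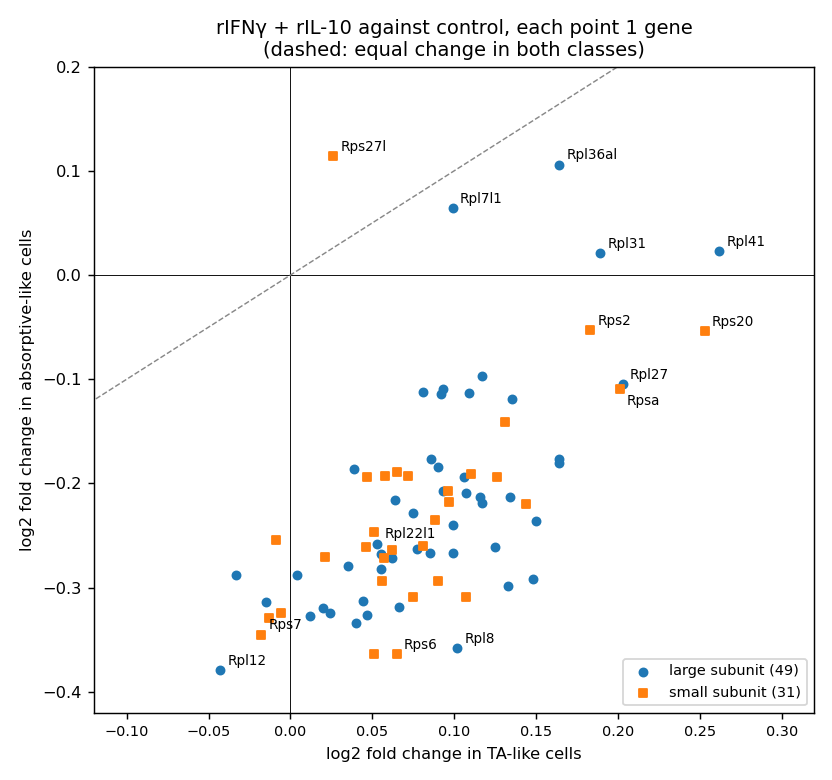
Log2 fold change between cytokine-stimulated and control organoids in TA-like cells (x axis) and absorptive-like cells (y axis) for 49 large and 31 small subunit genes, with a dashed line where both are equal. Nearly all points lie below the line, and the few near it include Rpl36al, Rpl7l1 and Rps27l.

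Several values moved with these results, and their part was not tested. In absorptive-like cells, the summed level of enterocyte markers was 8386, 6606 and 8092 CPM in control and 10491, 6126 and 11188 CPM with cytokines, so that replicate 2, with the smallest change of the members, had no gain of these markers. The summed level of ISC markers there was 173, 162 and 145 CPM in control and 76.8, 162 and 72.0 CPM with cytokines, with nearly equal values in replicate 2. That of enterocyte progenitor markers was lower with cytokines in all 3 replicates, replicate 2 included, with 22515, 29056 and 37198 CPM in control and 18795, 20124 and 31272 CPM with cytokines. Interferon response genes, the check of stimulation, rose from 371, 318 and 378 to 3956, 3030 and 4564 CPM in absorptive-like cells, in replicate 2 as well. In TA-like cells, the summed level of cycling markers was 5509, 5362 and 5298 CPM in control and 4574, 4966 and 4792 CPM with cytokines, and that of enterocyte progenitor markers 4424, 4251 and 4339 and 3178, 3117 and 3259 CPM. Absorptive-like sums came from 86, 82 and 56 control cells and 180, 144 and 55 cytokine-stimulated cells, and the median cell held 37214 and 39337 UMIs. The share of the members per absorptive-like cell had a median of 26.7% in control (10th to 90th percentile 21.2 to 30.6%, 224 cells) and 23.4% with cytokines (15.9 to 29.3%, 379 cells). The 3 control clusters that make up TA-like cells, compared each alone, had 14, 10 and 3 of 80 members higher and 0 lower. Of all genes there, 817 of 11023, 565 of 10565 and 599 of 10413 were higher. In replicates 1, 2 and 3, the first of them held 80, 100 and 38 control and 41, 90 and 28 cytokine-stimulated cells. The second held 51, 78 and 39 and 65, 125 and 55, and the third 48, 62 and 23 and 43, 71 and 27. The members' share in control cells was 25.9, 27.1 and 26.8% in the first cluster and 27.8, 28.5 and 29.7% in the second. It was 26.7, 28.2 and 28.2% in the third, and the part of this mix was not tested. The 3 clusters of cycling Olfm4+ cells had 15, 1 and 8 members higher and 0, 2 and 1 lower. Of all genes there, 790 of 11009, 443 of 10458 and 438 of 10536 were higher. In the clusters with 3 and 1 members higher, the share of members was below that of all genes. The median log2 fold change was -0.00122 in the cluster with 1 higher, so that the rise was not seen in all clusters of that class. Both alternatives were added after the data were seen.

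Of the paralogs with an l suffix, Rpl36al and Rps27l were not called in absorptive-like cells, where their partners fell, while Rpl22l1 fell. Rpl36al (ENSMUSG00000049751) had 1123, 1241 and 1361 CPM in control and 1395, 1263 and 1387 CPM with cytokines, without a call (log2 fold change 0.11 ± 0.070, adjusted p = 0.285, edgeR), and it rose in TA-like cells (0.16, adjusted p = 0.0117, edgeR). Of all UMIs of Rpl36a and Rpl36al, which encode nearly identical proteins, Rpl36al held 39.0, 39.4 and 43.0% in absorptive-like control cells, 51.4, 41.97 and 50.3% with cytokines and 41.4, 41.9 and 45.4% with Treg cells. The share was higher with cytokines than in control in each replicate, and replicate 2 with cytokines lay below control replicate 3. Rps27l (ENSMUSG00000036781), a p53 target, had 858, 829 and 888 CPM in control and 1019, 843 and 967 CPM with cytokines (0.11 ± 0.066, adjusted p = 0.216, edgeR). Its share of the Rps27 pair was 16.3, 14.2 and 17.9% in control and 24.2, 15.7 and 24.5% with cytokines in absorptive-like cells, compared with 21.0, 17.8 and 22.9% and 20.8, 17.6 and 22.4% in TA-like cells. Rpl22l1 fell (-0.26 ± 0.071, adjusted p = 0.011, edgeR), and its share of the Rpl22 pair was 44.6, 46.7 and 49.4% in control and 44.5, 47.1 and 46.6% with cytokines. Rpl7l1 had 51.0, 65.3 and 74.8 CPM in control and 60.7, 66.9 and 72.9 CPM with cytokines, with overlap and without a call. These shares were not tested, and reads that both genes of a pair could have produced are not resolved by the counts.

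The members with and without a pyrimidine run had similar median changes, a description without a test. The median log2 fold change of the 48 tested members with a run and the 12 without one was -0.25 and -0.21 in absorptive-like, 0.075 and 0.082 in TA-like and 0.022 and 0.069 in cycling Olfm4+ cells. Rps27 and Rps27l, both with a run of 9 bases in the windows given above, lay at -0.36 and 0.11 in absorptive-like cells. The runs are not alike in place. That of Rps27 began 2 bases before the annotated start and reached across it. The run of Rps27l shown in capitals began 22 bases before the start and ended before it.

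Other genes of protein synthesis were read from lists. Among ribosomal genes outside the naming rule, Rps3a1, a small subunit protein, fell in absorptive-like cells (-0.39 ± 0.071, adjusted p = 0.000441, edgeR), as did Rack1, the scaffold protein on the small subunit (-0.29, adjusted p = 0.00445, edgeR). Fau, the precursor of Rps30, rose in TA-like cells (0.12 ± 0.038, adjusted p = 0.0254, edgeR). Of translation factors and other genes known for a TOP tract, 8 of 17 fell and 1 rose in absorptive-like cells (Eif3f -0.41, Eef1g -0.36 and Eef1b2 -0.36 on the log2 scale, and Nap1l1 0.47), and 10 of 18 rose and 0 fell in TA-like cells. Among these 10 was Vim, a gene near the floor that was raised in replicate 2 only. It had 0, 0.09 and 0.38 CPM in control and 0, 4.94 and 0 CPM with cytokines. Of 8 noncoding host genes of small nucleolar RNAs, 6 fell in absorptive-like cells, among them Snhg6 (-0.79) and Snhg1 (-0.48), and 3 rose in TA-like cells, among them Zfas1 (0.41).

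The factors that assemble ribosomes had larger median fold changes than the ribosomal proteins, without a test of the difference. Of 40 such genes, 23 fell and 0 rose in absorptive-like cells (median log2 fold change -0.56), among them Gnl3, a nucleolar GTPase of stem cells (-1.09), Mybbp1a (-1.02) and Gar1 of the H/ACA particle (-0.90). In cycling Olfm4+ cells, 25 rose and 0 fell (median 0.26), among them the helicase Ddx21 (0.44) and Nip7 (0.42), and in TA-like cells 9 rose and 0 fell. In contrast, of the 78 genes of the mitochondrial ribosome, a separate machine, 17 rose and 2 fell in absorptive-like cells (median 0.13), among them Mrpl51 (0.66) and Mrpl27 (0.63), and 16 rose and 4 fell in TA-like cells. Of the regulators of this system, 2 of 19 rose and 2 fell in absorptive-like cells and 3 of 20 rose and 3 fell in TA-like cells, near the shares of all genes called in these classes. In absorptive-like cells, Max (0.67), the partner of Myc, and Larp4b (0.31) rose, Trp53 fell by 0.59 on the log2 scale, and Myc had 44.4, 34.4 and 29.1 CPM in control and 15, 26.6 and 20.2 CPM with cytokines without overlap (log2 fold change -0.89). Eif4ebp1, the inhibitor of cap-dependent translation that mTORC1 blocks, rose in ISC-like (0.38), TA-like (0.63), cycling Olfm4+ (0.53) and Dmbt1+ intermediate cells (0.73). In the last of these classes, 17 members fell and 0 rose.

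For the co-cultures, the question was whether Treg cells shift the members and whether the antibodies undo this. No member was called in any class, in either direction, with Treg cells alone, with anti-IFNγ, anti-IL-10R or both, or between Treg cells without and with both antibodies, neither by edgeR nor by DESeq2. These comparisons comprise 480 tests of members each, and all but the last share the control cells. The background over all genes and classes was 0.188% for Treg, 0.0% for Treg with anti-IFNγ, 0.49% for Treg with anti-IL-10R, 0.00311% for Treg with both antibodies and 0.292% for Treg without against with both antibodies, so that 0 calls stand near the background. At an unadjusted p under 0.05, 0 members were higher and 21 lower with Treg cells, 0 and 3 with anti-IFNγ, 0 and 9 with anti-IL-10R, 1 and 38 with both antibodies, and 10 and 2 without against with both antibodies. In either direction, these were 4.38% of the member tests for Treg (7.35% over all genes), 0.625% for anti-IFNγ (3.57%), 1.88% for anti-IL-10R (8.61%), 8.12% for both antibodies (4.49%) and 2.5% without against with both antibodies (7.52%). Of the 38, 35 were in Dmbt1+ intermediate cells, where 43.8% of the members and 6.7% of all genes had such a p with both antibodies, although no member passed the adjusted test. Of the 21 with Treg cells, 16 were also in Dmbt1+ intermediate cells, where 20% of the members and 7.38% of all genes had such a p. The lowest adjusted p of a member with Treg cells was 0.369 (edgeR).

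The medians of the 80 members with Treg cells were -0.073 in ISC-like, -0.004 in cycling Olfm4+, 0.013 in TA-like, -0.075 in Dmbt1+ intermediate, -0.001 in absorptive-like and 0.072 in goblet/Paneth-like cells. Their share of UMIs in absorptive-like cells was 25.3, 26.7 and 25.2%, lower than control in each replicate, although the groups overlapped. In ISC-like cells, the share differed from control by -0.99, -1.091 and -0.655 percentage points in replicates 1, 2 and 3. In Dmbt1+ intermediate cells, it differed by -0.641, -0.875 and -0.845 percentage points. The groups overlapped in both classes. In the other tested classes the sign varied between replicates, and these differences were not tested. Rps6 in absorptive-like cells had 1713, 1587 and 1673 CPM with Treg cells, between the control and the cytokine value of each replicate, and Rpl41 in TA-like cells had 6869, 8134 and 7331 CPM. The interferon response was present in these co-cultures, with 6 of the tested check genes higher in ISC-like, 7 in cycling Olfm4+, 6 in TA-like, 3 each in Dmbt1+ intermediate and absorptive-like and 0 in goblet/Paneth-like cells. In goblet/Paneth-like cells, the share of the members was 1.5, 1.21 and 3.94 percentage points higher without than with both antibodies in replicates 1, 2 and 3, without overlap of the groups, and no member passed the test there. These shares rest on few cells, 24, 62 and 17 without and 32, 36 and 12 with both antibodies in the same order.

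**Figure D5:**
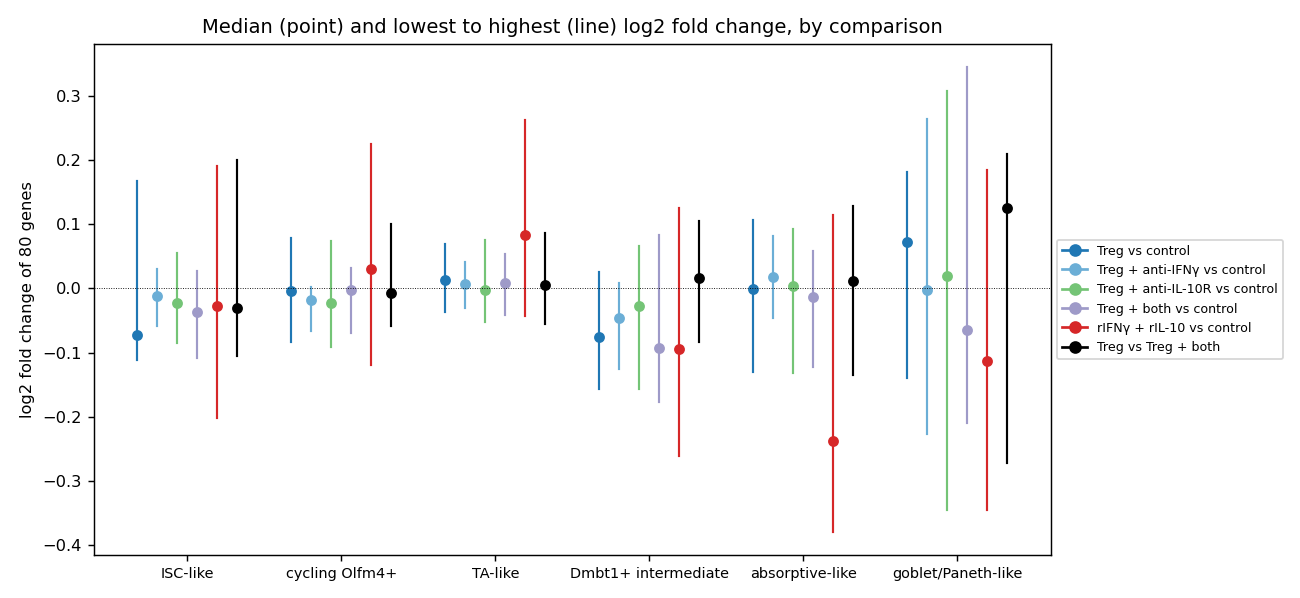
Median (point) and lowest to highest (line) log2 fold change of the 80 members in each of the 6 comparisons and 6 cell classes. Only the comparison of rIFNγ plus rIL-10 with control has a median beyond -0.2, in absorptive-like cells.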

How the data were processed

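Organoid cells of 6 hashed groups were pooled in each library, 2 libraries each for replicates 1 and 2 and 1 for replicate 3. The authors mapped reads of the 3′ assay with Cell Ranger 7.0.0 to GRCm38, with oligonucleotide tags counted alongside, and deposited UMI counts per gene and barcode without normalization. Each cell's group came from the deposited hashtag counts with HTODemux (Seurat 5.3.0, quantile 0.99) and singlets were kept. As in the study, a cell needed at least 10000 and no more than 90000 UMIs, 3000 to 10000 detected genes and a mitochondrial share of up to 8.5%. The study removed further doublets with a program not available here. Scrublet was used as an alternative, and its score told hashtag doublets from singlets poorly in at least 1 library (area under the curve 0.481).

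Control cells were clustered (leidenalg 0.10.2) without ribosomal protein, interferon, antigen presentation and hashtag features, and every cell was assigned by correlation over 416 genes. The names absorptive-like, cycling Olfm4+ and Dmbt1+ intermediate were given once the clusters had been seen. UMIs were summed per class, group and replicate where each had at least 10 cells, and the sums held 454245 to 16776546 UMIs. They were tested over all genes with edgeR 4.0.16 (R 4.3.3, TMM, filterByExpr, quasi-likelihood test, Benjamini-Hochberg adjustment at 0.05 in each class and comparison), with all 6 groups in 1 fit and replicate as a block, since the groups of a replicate share libraries. Groups of the same replicate deviated from the group means together (mean correlation 0.181 to 0.453, other replicates -0.27 to -0.157). The negative values for other replicates follow from taking out each group's mean over its replicates and carry no information on the block. The study tested single cells with NEBULA, which was not used here. Alternatives were DESeq2 1.42.0, other normalizations, filters and cell selections, and leaving out each replicate. The tests were tried on simulated TA-like sums with known changes. Of changes of 0.5 and 1 on the log2 scale, 50 and 84% were recovered, with 9 calls among 12145 unchanged genes. The simulated sums held no replicate effect, so that the use of the block was not tried, and smaller changes were not simulated. With replicate as a block, the p-values measure how differences between groups vary over the 3 experimental replicates, with the spread estimated over all 6 groups. Differences shared by all groups of a replicate are taken out. The labels call the replicates biological without giving the number of mice.

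The members, gene lists and tests were chosen with earlier results of these data known. Named members were, for each class and for the cytokine and Treg comparisons, up to 5 with the largest absolute log2 fold change in each direction among those with an adjusted p under 0.05, the paralogs with an l suffix, the 5 most and 5 least abundant in control cells and the 5 with the widest range between classes. Of other lists, up to 4 called genes with the largest change were named. Pseudogene rows, each at most 0.0274% of the members' UMIs, were not members. A few results that this rule would name are not reported here.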

Additional observations from a re-analysis of the deposited data

Results flagged for a closer look

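The difference of the cytokine effect between cell classes, tested with the class by treatment term (edgeR, replicate as a block), passed for 70 members between absorptive-like and TA-like cells, all with the lower effect in absorptive-like cells. The largest differences on the log2 scale were those of Rpl8 (-0.449), Rpl27a (-0.429), Rpl14 (-0.42), Rps6 (-0.418) and Rps19 (-0.405). Between absorptive-like and ISC-like cells, it passed for 7 members, again with the lower effect in absorptive-like cells. The count of 70 was 4 without replicate 1 and 0 without replicate 3. Over all genes, 59 and 12 were lower in these fits, in place of 407. Replicate 2 was the one in which enterocyte markers of absorptive-like cells were not higher with cytokines. The part of these markers in the difference was not tested.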

How the results depend on the processing

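Without the replicate block, edgeR called 0 members with cytokines, in place of 54 higher and 84 lower over the classes (30 higher in TA-like, 22 higher in cycling Olfm4+, 17 lower in Dmbt1+ intermediate and 63 lower in absorptive-like cells), and 0 in place of the 70 and 7 differences between classes. The block changed no other call of a member. Over all genes, the lower differences were 11 without the block in place of 407 against TA-like cells, and 17 in place of 257 against ISC-like cells. Leaving out 1 replicate at a time gave 14 (replicate 3) to 69 (replicate 2) members higher and 7 (replicate 3) to 83 (replicate 2) lower over the classes. The ranges were 3 to 47 higher in TA-like, 10 to 22 higher in cycling Olfm4+, 0 (replicate 1) to 17 lower in Dmbt1+ intermediate and 2 to 64 lower in absorptive-like cells, and 0 to 72 (against TA-like) and 0 to 14 (against ISC-like) differences between classes. The lowest value came without replicate 3 or replicate 1. With Treg cells and anti-IL-10R, the range was 0 to 1 member lower, Rpl12 in cycling Olfm4+ cells without replicate 1. In absorptive-like cells, the log2 fold change of Rpl36al lay between -0.013 (without replicate 1) and 0.169 (without replicate 2) and that of Rpl7l1 between -0.047 (without replicate 1) and 0.138 (without replicate 3). Without limits on cells beyond 1000 UMIs, 24 members were higher and 131 lower over the classes, of which 44 lower in ISC-like cells. In that fit, 11 were higher in TA-like, 13 higher in cycling Olfm4+ and 9 lower in Dmbt1+ intermediate cells. The gain of the members' share in TA-like cells was 0.491 percentage points instead of 0.859. Calls over all genes in that fit are not given here, so that its counts cannot be read as particular to the members. The 17 calls in Dmbt1+ intermediate cells were 8 with DESeq2, 10 with normalization from other genes, 9 without a filter on low counts, 5 with equal cell numbers and 9 without Scrublet doublets. The 7 differences against ISC-like cells were 19 without TMM and 13 with normalization from other genes, where 275 and 286 of all genes were lower. The cause of these changes was not tested. Some alternatives leave fewer samples or cells, whereas the one without limits on cells holds more (23802 cells in place of 11911). Counts in absorptive-like cells were 50 to 73 under all alternatives that kept the 3 replicates and the block. Without TMM, 24 members rose and 1 fell in TA-like cells. For the counts of calls within a class, calls over all genes under these alternatives are not given here. Those counts can therefore not be read as particular to the members. Depth limits the lowest members, with 38 UMIs in the smallest sum.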
